A study of Mus musculus with 24 samples.

Results

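The miRNAs described here carry a number of 1000 or more in miRBase, the catalogue that numbers miRNAs in the order in which they were submitted. They were chosen by name, ignoring a trailing @, and by level. The level was read in RPM (reads per 1000000 miRNA reads), and the stage mean of 6 mice had to reach 1 RPM at 1 or more stages. This gave 86 of the 393 listed miRNAs with such a number, out of 1009 listed miRNAs in all. The choice used measured levels, so that every member has some level at some stage by construction.

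Small RNA was measured in the whole mammary glands (gland pairs 4 and 5) from 24 females of the inbred mouse strain C57BL/6, each sequenced as 1 library. The 4 groups of 6 mice were adults of 10 weeks (W10), mice at day 18 of gestation (P18), mice at day 7 of lactation (Lac7) and mice at day 3 of involution (Inv3). Sample titles give the age and the days of gestation and lactation, and the paper gives the day of involution. The design text of the series exchanges the days of lactation and involution. Libraries held 660346 to 1165321 miRNA reads, with the fewest at Lac7 (660346 to 751890), so that 1 RPM stood for about 1 read. The glands were whole tissue, so fewer cells of a type and less RNA per cell cannot be told apart. The summed level of 5 luminal epithelial markers of the miR-200 family, all of them listed with none at 0, had a mean of 16770 RPM at W10 and of 122543 RPM at Lac7. The 4 leukocyte markers were at 39703 and 7003 RPM at the same stages, and the 3 skeletal muscle markers were at 10881 RPM at W10 against 366 to 1996 RPM at the other stages. The part of these shifts in the results below was not tested.

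A miRNA is a short RNA cut from a hairpin, and the bases at its positions 2 to 8, the seed, pair with target mRNAs. Most hairpins are cut by Drosha and then Dicer. A mirtron instead takes one or both ends of its hairpin from the splicing of a short intron, and other Dicer products come from snoRNAs and scaRNAs, which guide the modification of other RNAs. High numbers were often assigned from deep sequencing, and the entries include low-level species and fragments of other small RNAs.

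The mature sequences below are from RefSeq (GRCm38.p6), 5′ to 3′, with the seed in capitals. The first set holds members cut from a strand opposite another miRNA precursor, each followed by that partner, because their reads were compared pairwise.
miR-3074-5p: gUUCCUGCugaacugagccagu
miR-24-3p: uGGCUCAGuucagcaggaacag
miR-3065-5p: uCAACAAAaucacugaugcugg
miR-338-3p: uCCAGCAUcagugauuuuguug
miR-3071-3p: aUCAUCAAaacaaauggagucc
miR-136-5p: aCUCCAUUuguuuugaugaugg

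The second set holds members whose mature sequence lies within an annotated snoRNA or scaRNA, with both arms of miR-1843a because their ratio changed with stage.
miR-1843a-5p: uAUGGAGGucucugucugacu
miR-1843a-3p: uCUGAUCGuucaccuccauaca
miR-3068-5p: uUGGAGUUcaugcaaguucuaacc
miR-1839-5p: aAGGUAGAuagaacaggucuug
miR-3535: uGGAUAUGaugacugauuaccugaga
miR-5121: aGCUUGUGaugagacaucucc

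The third set holds further members whose level moved with stage, and the arms of a mirtron (miR-1981).
miR-3964: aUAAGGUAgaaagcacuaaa
miR-3105-5p: aGAGCAAGcccguaagcagcgu
miR-1191a: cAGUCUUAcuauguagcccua
miR-5123: uGUAGAUCcauaugccauggugug
miR-1968-5p: uGCAGCUGuuaaggaugguggacu
miR-1193-3p: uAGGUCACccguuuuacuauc
miR-7116-5p: uGAAGACAucaggaaaaaaaa
miR-1981-5p: gUAAAGGCugggcuuagacguggc
miR-1981-3p: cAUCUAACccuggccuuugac

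A sequence was found for 75 of the 86 members and for 383 of the 458 tested miRNAs with a lower number. An exact match within an annotated snoRNA, scaRNA or other small RNA was found for 15 members (20%) and for 4 lower-numbered miRNAs (1.0%). The 15 include miR-3473b and miR-3470b, which also match transcripts of 343 and 546 genes. They also include both arms of miR-3068 and miR-1839-5p, whose matching small RNA carries the name of the miRNA itself. Whether the annotation holds all tRNAs and rRNAs was not tested. The hairpin ended within 5 bases of an intron end for 16 members (21.3%) and for 6 lower-numbered miRNAs (1.6%). Of these, miR-1981-5p and miR-1981-3p in Marc2 and miR-7033-5p in Pom121 met the stricter rule for a mirtron, a hairpin that covers at least 50% of an intron of under 500 bases. Only 3 members (4.0%) shared a seed with a listed miRNA of a lower number, as against 128 (33.4%) of the lower-numbered miRNAs sharing one with another such miRNA. The second count includes miRNAs that carry the same number with different letters. Sharing between members, as by miR-3473b and miR-3473e, was left out of the first count. The part of naming in this difference was not tested. The members that shared a seed were miR-6240 (with miR-330-3p), miR-1193-3p (with miR-370-5p) and miR-5129-3p (with miR-455-5p). The median GC content was 52.2% in the members and 45.5% in the lower-numbered miRNAs. These are descriptions with no test, and miRNAs with near-identical sequences are not independent.

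**Figure D1:**
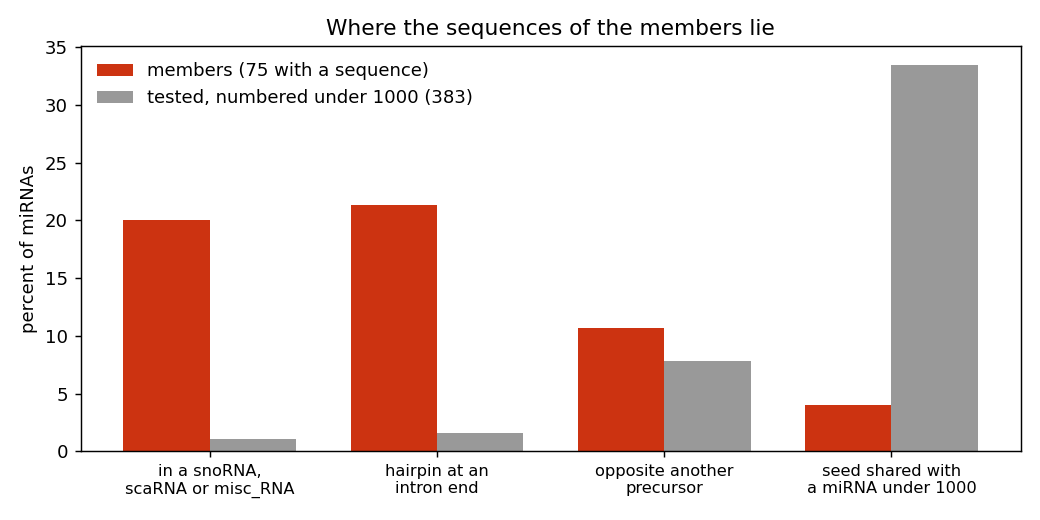
Bars give the percent of miRNAs with a sequence that lie within another small RNA, end at an intron end, lie opposite another precursor or share a seed, for the 75 members (red) and 383 lower-numbered miRNAs (grey). The members reach 20% and 21.3% in the first 2 classes, against 1.0% and 1.6%, and 4.0% against 33.4% for a shared seed.

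Most members were rare. The median member had 43.5 reads over all 24 libraries (range 8 to 127244), 55 of the 86 had fewer than 72 reads, and 20 had a read in every library. A level of 10 RPM or more, averaged over the 24 libraries, was reached by 16 members (18.6%) and by 269 lower-numbered miRNAs (58.7%). The means of the members had a median of 1.99 RPM, and those of the lower-numbered miRNAs 21.22 RPM. At 1 RPM or more, 41 members were seen at all 4 stages and 17 at a single stage.

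The members together took 0.627% to 0.973% of the miRNA reads of a library. A single member, miR-3074-5p, held 71.2% of these reads and ranked 27th of all miRNAs by mean level. Without it the mean share was 0.302% in the adult, 0.172% in the pregnant, 0.245% in the lactating and 0.215% in the involuting mice. The libraries at Lac7 held a read of 52 to 61 members, against 58 to 74 elsewhere. With all libraries thinned to 660346 reads, the medians were 60.5 members for adult, 59.25 for pregnant, 57.5 for lactating and 56 for involuting mice.

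At the threshold of the rule, miR-3081-3p (highest stage mean 1.002 RPM, 8 reads in all), miR-5129-3p (1.017 RPM, 15 reads) and miR-6951-5p (1.088 RPM, 12 reads) lay just inside. Just outside were miR-7043-3p (0.998 RPM), miR-5624-3p (0.978 RPM) and miR-1933-3p (0.975 RPM).

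The members opposite another precursor were described first, since they include the most abundant. miR-3074-5p comes from Mir3074-1 (chromosome 13, 63301199 to 63301283, within an intron of Fancc) and Mir3074-2 (chromosome 8, 84208825 to 84208907), in GRCm38. These lie on the strands opposite Mir24-1 and Mir24-2. Of its 22 bases, 20 in a row are the reverse complement of miR-24-3p, a widely expressed miRNA. Its level ran from 3279 to 5847 RPM at W10 (median 4568), 5000 to 6254 RPM at P18 (median 5839), 6067 to 7311 at Lac7 (median 6657) and 4629 to 6984 at Inv3 (median 6609). Every Lac7 mouse lay above every W10 mouse, a pair of stages that was not tested, and the mice overlapped in each of the 4 comparisons tested. The largest of these 4 differences, Inv3 above W10, was a log2 fold change of 0.42 ± 0.12 (SE), below the limit of 1 set for a call (adjusted p = 0.0068, limma).

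In each of the 24 libraries, miR-3074-5p had 9.36 to 11.59 times the reads of miR-24-3p (12004 reads in all). The pooled ratio of W10 was 10.89, that of P18 10.35, that of Lac7 10.41 and that of Inv3 10.76, and the scatter over all libraries was 1.3 times that of read counting alone (chi-square per degree of freedom). None of the 4 comparisons of the ratio passed the threshold, with Benjamini-Hochberg adjusted p of 0.41 to 0.95 over 28 exact two-sided permutation tests. Whether reads were assigned by strand was not tested.

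miR-3065-5p comes from Mir3065 (chromosome 11, 120014767 to 120014853), on the strand opposite Mir338, and 21 of its 22 bases are the reverse complement of miR-338-3p. It ran from 467 to 691 RPM at W10 (median 648), and from 118 to 312 at P18, 108 to 276 at Lac7 and 98 to 248 at Inv3. The W10 mice lay above all others, and the 3 other stages overlapped. Relative to W10 the log2 fold change was -1.75 ± 0.25 for P18 (adjusted p = 1.7e-06) and -1.78 ± 0.25 for Inv3 (adjusted p = 3.4e-06).

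Unlike the first pair, miR-3065-5p and miR-338-3p did not keep 1 ratio. miR-3065-5p had 1.08 times the reads of miR-338-3p at W10, 1.97 times at P18, 2.56 times at Lac7, with 1.40 times at Inv3. The Lac7 mice (2.33 to 2.90) did not overlap those of P18 (1.49 to 2.25) or Inv3 (1.13 to 1.69), with exact permutation p = 0.0021645, the smallest that 6 against 6 allows, and adjusted p = 0.015 for both. The P18 ratio was above that of W10 (exact permutation, adjusted p = 0.024), and Inv3 against W10 missed the threshold (adjusted p = 0.11), which it passed without W10 mouse 5 (exact permutation, adjusted p = 0.030).

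miR-3071-3p comes from Mir3071 (chromosome 12, 109595318 to 109595397), opposite Mir136 and within an exon of Rtl1, in the imprinted Dlk1-Dio3 region. It ran from 110 to 198.9 RPM at W10, 143.7 to 246 RPM at P18, 22.5 to 84.1 at Lac7 and 35.1 to 140 at Inv3. The mice of P18 and Lac7 did not overlap, and the log2 fold change from P18 to Lac7 was -2.09 ± 0.29 (adjusted p = 1.4e-06). Against W10, Inv3 was lower by a log2 fold change of -1.15 ± 0.29 (adjusted p = 0.0025) with overlapping mice, and this call was lost with DESeq2 size factors (-0.77), edgeR (-0.64), DESeq2 (-0.66) and without Inv3 mouse 2 (-0.97).

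The other arm, miR-3071-5p, fell from a mean of 5.54 RPM (32 reads) at P18 to 1.44 RPM (6 reads) at Lac7, a log2 fold change of -1.36 ± 0.43 (adjusted p = 0.01) with overlapping mice that was not called by DESeq2. miR-3071-3p had 14.3 times the reads of miR-136-5p over all libraries, and no comparison of this ratio passed the threshold with a pseudocount of 1 (exact permutation, adjusted p of 0.79). With a pseudocount of 10 it passed for Lac7 against P18, with the direction turned (-0.99), and for Inv3 against W10 (-0.66). That pseudocount exceeds the mean of miR-136-5p at Lac7 (2.45 RPM) and at Inv3 (5.69 RPM), so these passes cannot show a change of the ratio. From the same region of chromosome 12, miR-1193-3p fell from 7.46 to 18.39 RPM at P18 to 0 to 6.65 RPM at Lac7. Its mice did not overlap, with a log2 fold change of -2.04 ± 0.41 (adjusted p = 1.8e-04).

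**Figure D2:**
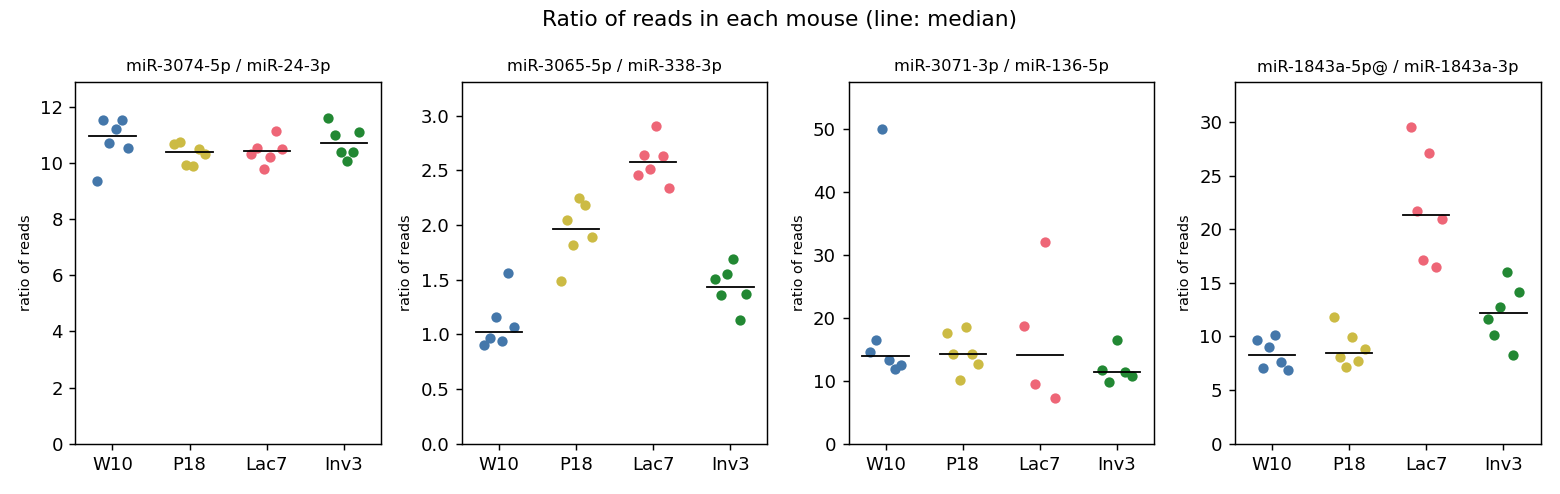
Each dot is the ratio of reads of 2 miRNAs in 1 mouse, by stage, with the median as a line and libraries without a read of the partner left out. miR-3074-5p stays at 9.36 to 11.59 times miR-24-3p, whereas miR-3065-5p over miR-338-3p and miR-1843a-5p over miR-1843a-3p are highest at Lac7.

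The members that match snoRNAs and scaRNAs are among the most abundant after miR-3074-5p. miR-1843a lies in Scarna3b, within an intron of Dcaf5 (chromosome 12, 80391613 to 80391677). The file lists its 5p arm with a trailing @, whose meaning is not given in the sources used here, and it lists no miR-1843b-5p. miR-1843a-5p ran from 583 to 741 RPM at W10, 304 to 465 RPM at P18, 504 to 636 at Lac7 and 441 to 556 at Inv3. The P18 mice lay below those of W10 and Lac7, with log2 fold changes of -0.82 ± 0.11 (adjusted p = 1e-06) and 0.57 ± 0.11 (adjusted p = 1.4e-04), both under the limit of 1.

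The 3p arm did not follow the 5p arm into lactation. miR-1843a-3p had a mean of 80.6 ± 8.94 RPM (SD, n = 6) at W10, 43.3 ± 7.87 at P18, 26.7 ± 7.69 at Lac7, with 43.9 ± 8.97 at Inv3. The 5p arm had 8.18 times the reads of the 3p arm at W10, 8.73 times at P18, 21.04 times at Lac7 (2357 and 112 reads), with 11.53 times at Inv3. Whether the 5p entry marked @ also holds reads from the miR-1843b hairpin was not tested, so this ratio may not be that of 1 hairpin. The Lac7 mice (16.5 to 29.5) lay above all those of P18 (7.18 to 11.78) and Inv3 (8.27 to 15.97), with exact permutation p = 0.0021645 and adjusted p = 0.015 for both. The arm ratios of miR-3068, miR-3071 and miR-1981 were tested in the same family and no comparison passed with a pseudocount of 1, the smaller arm having 89 to 140 reads in all. With a pseudocount of 10, the ratio of Lac7 against P18 passed for miR-3068 (log2 difference 1.25) and miR-3071 (-1.44), both with an exact permutation adjusted p of 0.010. That pseudocount exceeds the P18 and Lac7 means of miR-3068-3p (3.1 and 8.6 RPM) and of miR-3071-5p (5.5 and 1.4 RPM). Both differences then mostly follow the larger arm and cannot show a change of the ratio. Without Inv3 mouse 2, the ratio of Inv3 against W10 passed for miR-1981 (1.21), and without Inv3 mouse 5 it passed for miR-1843a (0.61), both with an exact permutation adjusted p of 0.030.

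miR-3068-5p lies in a hairpin also annotated as a snoRNA within an intron of Alkbh1 (chromosome 12, 87437679 to 87437757). It ran from 299 to 392 RPM at W10, 169 to 263 RPM at P18, 663 to 851 at Lac7 and 300 to 612 at Inv3. The Lac7 mice lay above all others and the P18 mice below all others. The log2 fold change from P18 to Lac7 was 1.79 ± 0.16 (adjusted p = 6.7e-10), and the fall to Inv3 of -0.83 ± 0.16 (adjusted p = 1e-04) stayed under the limit of 1, which it passed with size factors (-1.01).

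miR-1839-5p, in a hairpin also annotated as a scaRNA (chromosome 7, 81529916 to 81529988), moved alike. It ran from 118 to 174 RPM at W10, 87.5 to 113 RPM at P18, 203 to 302 at Lac7 and 130 to 187 at Inv3. Its Lac7 mice lay above all others, with a log2 fold change of 1.32 ± 0.14 from P18 (adjusted p = 2.6e-08).

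miR-3535, in a snoRNA within an intron of Ncl, which encodes the ribosome assembly factor nucleolin (chromosome 1, 86351981 to 86352127), had another order. Its means were 206.2 ± 46.5 RPM at W10, 116 ± 24.04 at P18, 118 ± 29.7 at Lac7, with 215 ± 74.8 at Inv3. The log2 fold changes of -0.82 ± 0.22 between the adult and pregnant mice and 0.82 ± 0.22 between the lactating and involuting mice both had an adjusted p of 0.0027 and stayed under the limit of 1.

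miR-5121, in Snord33 of the ribosomal protein gene Rpl13a, ran from 6.87 to 31.85 RPM at Inv3 (105 reads), against 1.5 to 8.90 RPM at Lac7 (20 reads). The mice overlapped, and the log2 fold change was 1.68 ± 0.38 (adjusted p = 6.2e-04). It was also higher at Inv3 than at W10 (1.12 ± 0.38, adjusted p = 0.019), a call lost without W10 mouse 4, Inv3 mouse 4 or Inv3 mouse 6. miR-1291 in Snora34 (mean 12.1 RPM) and miR-1843b-3p in Scarna3a (mean 9.91 RPM) had no call in any comparison over the 24 libraries, and DESeq2 called miR-1291 higher at Lac7 than at P18 (adjusted p = 0.010).

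**Figure D3:**
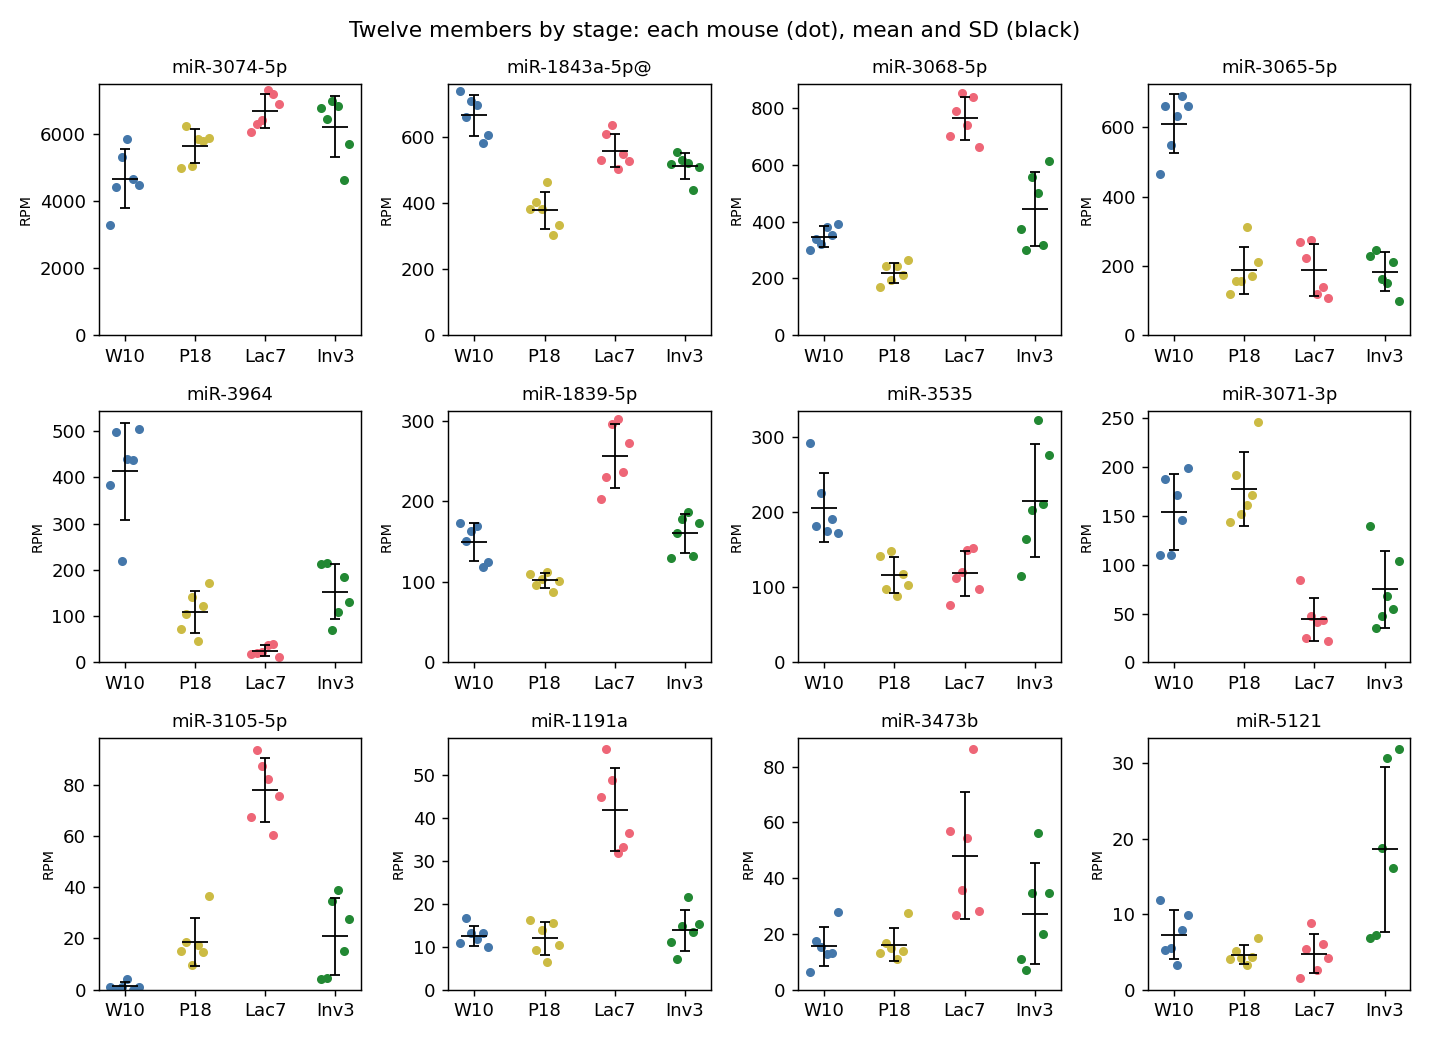
Each panel shows 1 member, with RPM on an axis from 0, a dot per mouse, and the mean and SD of the 6 mice of each stage in black. miR-3068-5p, miR-1839-5p, miR-3105-5p and miR-1191a are highest in the Lac7 mice, and miR-3964 and miR-3065-5p in the W10 mice.

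Several members lie in introns or exons of protein-coding genes. miR-3105-5p is within an intron of Shank2, a scaffold protein gene (chromosome 7, 144009254 to 144009338). It ran from 0 to 4.30 RPM at W10 (7 reads), 9.59 to 36.78 RPM at P18 (107 reads), 60.57 to 93.68 at Lac7 (330 reads) and 4.29 to 38.91 at Inv3 (119 reads). The mice did not overlap between W10 and P18, P18 and Lac7, or Lac7 and Inv3. The log2 fold changes were 3.27 ± 0.46 (adjusted p = 1.4e-06), 2.10 ± 0.46 (adjusted p = 4.3e-04) and -2.25 ± 0.46 (adjusted p = 1.9e-04), and Inv3 remained above W10 by 3.11 ± 0.46 with the mice overlapping. The other arm, miR-3105-3p (mean 2.95 RPM), was added after its values were seen. It was also higher at P18 than at W10 (2.548 ± 0.363, limma, adjusted p = 1.7e-06). From P18 to Lac7 it was not called (-0.709 ± 0.363, limma, adjusted p = 0.11). It was lower at Inv3 than at Lac7 (-1.445 ± 0.363, limma, adjusted p = 0.0018), and Inv3 against W10 was not called (0.394 ± 0.363). The ratio of these arms was not tested.

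miR-5123 is within an intron of B4galt1, whose product forms lactose together with alpha-lactalbumin (chromosome 4, 40850056 to 40850138). It ran from 0 to 2.98 RPM at W10 (8 reads), 4.26 to 12.43 RPM at P18 (47 reads), 9.31 to 25.43 at Lac7 (58 reads) and 0 to 8.31 at Inv3 (22 reads). The W10 and P18 mice did not overlap (log2 fold change 2.12 ± 0.47, adjusted p = 4.6e-04), nor did those of Lac7 and Inv3 (-1.89 ± 0.47, adjusted p = 0.0015). Both calls fell under the limit of 1 with a pseudocount of 10 (0.68 and -0.76). Inv3 against W10, not called (0.92 ± 0.47), was called by edgeR (1.80), DESeq2 (1.90) and without Inv3 mouse 2 (1.30). Lac7 against P18, not called (0.68 ± 0.47), was called by DESeq2 (1.07).

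miR-1968-5p, within an intron of Grtp1, ran from 7.02 to 14.72 RPM at Lac7 (44 reads) and from 0 to 4.15 RPM at Inv3 (6 reads). The mice did not overlap, with a log2 fold change of -2.60 ± 0.33 (adjusted p = 3.1e-07). Its rise from P18 to Lac7 (1.05 ± 0.33, adjusted p = 0.011) fell below the limit of 1 without P18 mouse 4, P18 mouse 5, Lac7 mouse 2 or Lac7 mouse 5, and was not called with a pseudocount of 0.1.

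miR-7116-5p, at an intron end of Acly, which supplies acetyl-CoA for fatty acid synthesis, was chosen after its values were seen. It had 3 reads at W10, 5 at P18, 37 at Lac7, with 2 at Inv3. Each Lac7 mouse was at 6.01 to 13.63 RPM and no mouse of another stage was above 2.13 RPM. It reached the 1 RPM of the rule at Lac7 only, so a gap between Lac7 and the other stages was built into its choice. Of the mirtron miR-1981, neither the 5p arm (mean 7.79 RPM) nor the 3p arm (mean 3.77 RPM) was called over all 24 libraries.

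For miR-1981-3p, which differed over the 4 stages (limma, adjusted p = 0.013), 2 comparisons lay near the threshold. These were Lac7 against P18 (limma, adjusted p = 0.059) and Inv3 against Lac7 (limma, adjusted p = 0.068). Only 6 of its reads came from the Lac7 libraries, against 23 from those of P18 and 24 from those of Inv3. Mouse 4 held 4 of the 6 Lac7 reads, and 3 Lac7 libraries had none. miR-1981-3p thus had few reads behind each call below. It was called lower at Lac7 than at P18 without P18 mouse 4 (log2 fold change -1.59, adjusted p = 0.0074), Lac7 mouse 4 (-1.54, adjusted p = 0.011) or Inv3 mouse 2 (-1.18, adjusted p = 0.048). It was called higher at Inv3 than at Lac7 without P18 mouse 4 (1.13), Lac7 mouse 4 (1.49), Inv3 mouse 1 (1.35) or Inv3 mouse 6 (1.28), and with a pseudocount of 0.1 (2.58). Inv3 mouse 2 is outside the first comparison and P18 mouse 4 outside the second. Leaving out either of them kept the fold change of that comparison (-1.18 and 1.13) and moved only the adjusted p.

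miR-1306-5p, within an exon of Dgcr8, whose product works with Drosha, had a mean of 7.33 ± 2.52 RPM at W10, 2.93 ± 0.84 at P18, 2.10 ± 1.60 at Lac7, with 1.83 ± 1.85 at Inv3. The log2 fold change from W10 was -1.06 ± 0.38 at P18 (adjusted p = 0.027), where the mice did not overlap, and -1.80 ± 0.38 at Inv3 (adjusted p = 4.7e-04), where they did. The first of these calls was lost with edgeR (adjusted p = 0.059), DESeq2, size factors and without W10 mouse 1 or 2 or P18 mouse 2 or 4.

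The other members named were miR-3964, miR-1191a, miR-1198-5p, miR-3473a, miR-3473b, miR-5099 and miR-6240. miR-3964 (chromosome 15, 29713331 to 29713404) lies in no annotated gene. It ran from 219 to 504 RPM at W10 (median 439), 45.5 to 171 RPM at P18 (median 114), 11.2 to 40.9 at Lac7 (median 21.2) and 70.2 to 214.2 at Inv3 (median 157). The W10 mice lay above all others and the Lac7 mice below all others. Between W10 and P18 the log2 fold change was -1.98 ± 0.32 (adjusted p = 1.4e-05), between P18 and Lac7 it was -2.09 ± 0.32 (adjusted p = 6.7e-06), and between Lac7 and Inv3 2.58 ± 0.32 (adjusted p = 2.5e-07). At Inv3 it was still below W10 (-1.48 ± 0.32, adjusted p = 6.2e-04). The leukocyte markers had the same order of stage means, at 39703, 17225, 7003 and 18317 RPM, with no marker at 0, and their part in this result was not tested.

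miR-1191a, within an exon of BC024978, ran from 9.95 to 16.61 RPM at W10, 6.51 to 16.30 RPM at P18, 31.92 to 56.21 at Lac7 and 7.20 to 21.50 at Inv3. The Lac7 mice lay above all others, with a log2 fold change of 1.76 ± 0.25 from P18 (adjusted p = 2.1e-06) and of -1.57 ± 0.25 to Inv3 (adjusted p = 1e-05). miR-1198-5p, within an intron of Gripap1, had a mean of 104 RPM and was lower at Lac7 than at P18 by a log2 fold change of -0.59 ± 0.18 (adjusted p = 0.0076), which is under the limit of 1.

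miR-3473b and miR-3473a match repeats, with exact matches in transcripts of 343 and 146 genes, so their origin is uncertain. miR-3473b ran from 10.85 to 27.59 RPM at P18 and from 26.77 to 86.32 at Lac7 (log2 fold change 1.45 ± 0.39, adjusted p = 0.0033), with the mice overlapping. Its fall to Inv3 of -0.96 ± 0.39 (limma, adjusted p = 0.046) stayed under the limit of 1. This fall was called with size factors, by DESeq2, and without Lac7 mouse 2, 3 or 6 or Inv3 mouse 3, 4 or 6. Inv3 against W10, not called, was called by edgeR (1.21) and DESeq2 (1.18). miR-3473a rose from a mean of 6.17 RPM at W10 to 13.15 RPM at P18 (1.03 ± 0.34, adjusted p = 0.014) without overlap, a call that fell under the limit of 1 without W10 mouse 3 or 7 or P18 mouse 3. It was also above W10 at Inv3 (1.02 ± 0.34, adjusted p = 0.017), a call lost without W10 mouse 1, 3 or 7 or Inv3 mouse 3, 4 or 6. miR-5099 (mean 26.9 RPM) and miR-6240 (mean 8.83 RPM) had no call, and in miR-6240 the mice of 1 stage ranged from 0.86 to 40.23 RPM.

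The calls were then counted over the members, with a call being an adjusted p under 0.05 and a log2 fold change of at least 1 in size. Many rare members could pass the filter only at a stage where they were high, so the counts over members of at least 10 RPM are given first. From W10 to P18, 4 of these 16 members were called, 2 higher (miR-3105-5p and miR-3473a) and 2 lower (miR-3065-5p and miR-3964). Over all 285 miRNAs of that level, 36.1% were called, 10.9% higher and 25.3% lower. Over all levels, 13 of 86 members were called (5 higher and 8 lower), against 27.6% of the 544 miRNAs tested (7.54% higher and 20% lower). The median log2 fold change was -0.27 in the 16 members and -0.31 in the 285 miRNAs, and -0.03 and -0.08 with size factors.

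From P18 to Lac7, 7 of the 16 were called against 37.5% of the 285. Of these, 5 were higher (miR-3068-5p, miR-1839-5p, miR-3105-5p, miR-3473b and miR-1191a), where 10.5% of the 285 were called higher. The other 2 were lower (miR-3964 and miR-3071-3p), where 27.0% of the 285 were called lower. The median log2 fold change was 0.26 in the 16 members and -0.25 in the 285 miRNAs. Scaled by size factors, these medians were 0.56 and 0.05. Over all levels, 16 of 86 members were called (9 higher and 7 lower) against 30.1% of the 544 (7.54% higher and 22.6% lower).

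From Lac7 to Inv3, 3 of the 16 were called, with miR-3964 higher and miR-3105-5p and miR-1191a lower, against 35.8% of the 285 (21.4% higher and 14.4% lower). Over all levels, 11 of 86 were called (4 higher and 7 lower) against 26.8% (16.5% higher and 10.3% lower). The medians were -0.21 in the 16 and 0.25 in the 285, and -0.38 and 0.08 with size factors. Between W10 and Inv3, 5 of the 16 were called, with miR-3105-5p and miR-3473a higher and miR-3065-5p, miR-3964 and miR-3071-3p lower, against 30.2% (8.42% higher and 21.8% lower). Over all levels, 13 of 86 were called (4 higher and 9 lower) against 25% (5.51% higher and 19.5% lower). Here the medians were -0.07 in the 16 and -0.40 in the 285, and 0.30 and -0.02 with size factors. The comparisons share their stages, so these counts are not independent of each other.

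Over the 4 stages together, 14 of the 16 members differed at an adjusted p under 0.05, against 93.3% of the 285. The exceptions were miR-5099 (adjusted p = 0.15) and miR-1291 (adjusted p = 0.35). Over all levels, 39 of 86 members differed against 72.6% of the 544. Changes in rare miRNAs are called less often, and the members were rarer (median 1.99 RPM, against 21.22 RPM for lower-numbered miRNAs). In simulated data with a log2 change of 2 and the total level kept, 111 of 113 changed miRNAs of at least 10 RPM were called. Under 10 RPM, 32 of 71 were called. The counts over all levels thus cannot show that members change less, and the part of level in them was not tested.

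**Figure D4:**
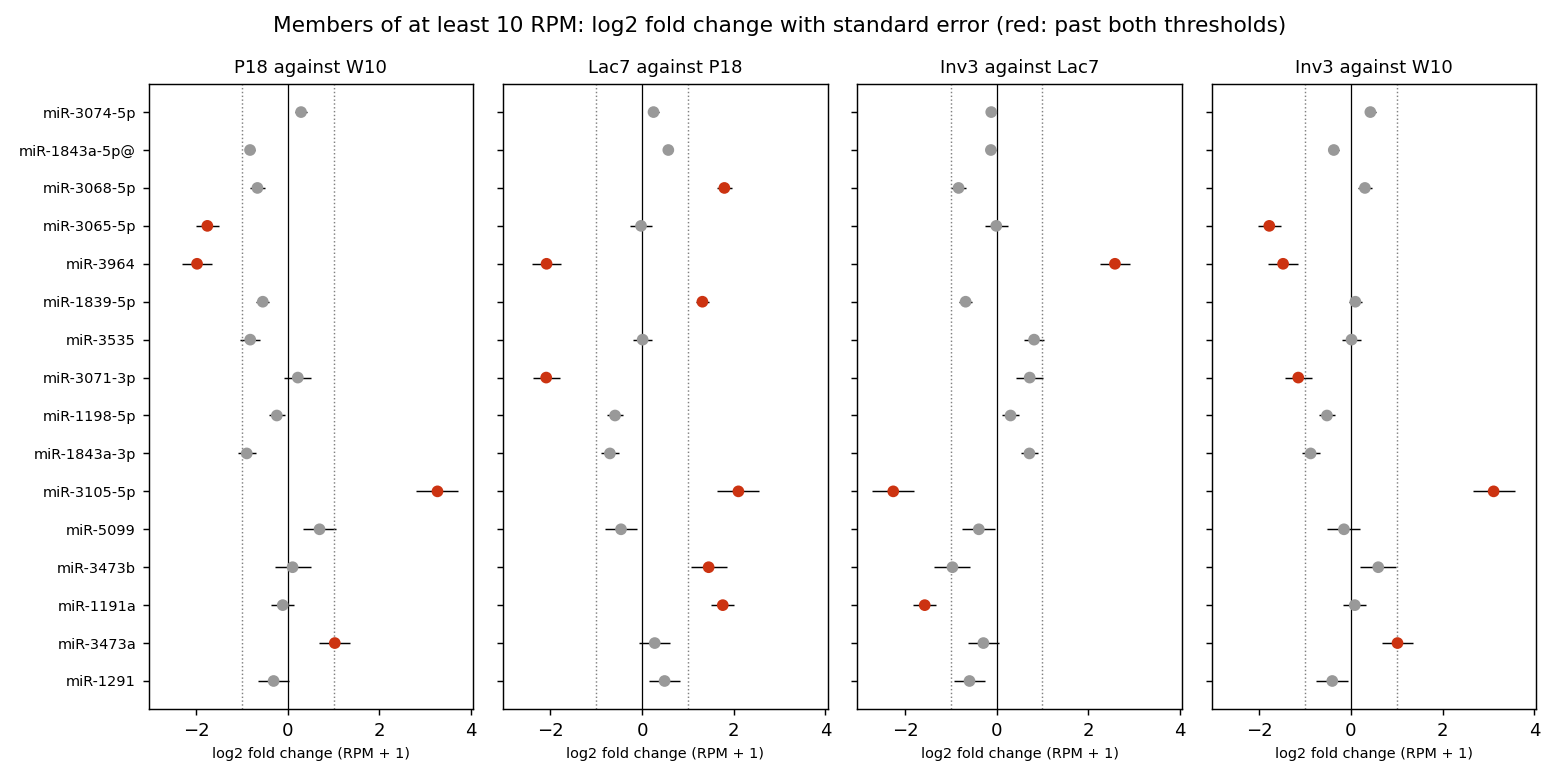
Each point is the log2 fold change of 1 of the 16 members of at least 10 RPM in 1 comparison, with its standard error, in red where past both thresholds and with dotted lines at a log2 fold change of 1 in size. From P18 to Lac7, 5 members are red on the right and 2 on the left, and miR-3105-5p is red in every comparison.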

How the data were processed

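The authors removed adapters (Trimmomatic 0.36 and cutadapt are named in the submitters' processing notes, with the build GRCm38) and assigned reads to miRBase with QuickMIRSeq. They deposited RPM per library, scaled to 1000000 reads on the 1009 listed miRNAs, so a value also depends on the reads that other miRNAs take. The values are whole multiples of a step, which gave back whole reads for all values within a tolerance of 0.0051 RPM. Whether molecular identifiers were counted is not given in the sources used here, and reads cover counting error only.

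On log2(RPM + 1), 1 limma 3.58.1 model (R 4.3.3, with the trend option of eBayes) was fitted over 24 libraries to the 544 miRNAs whose stage mean reached 1 RPM at some stage, with Benjamini-Hochberg adjustment over all of them. Fold changes on this scale understate those of rare miRNAs. Alternatives included edgeR 4.0.16, DESeq2 1.42.0 and DESeq2 size factors on the recovered reads. Ratios of reads were compared as log2 of RPM + 1 by an exact two-sided permutation test (924 possible splits of 12 mice), adjusted over 28 tests. Calls were tested on 2 kinds of simulated data. With the total level kept, few unchanged miRNAs were called. With the total level moved, many unchanged miRNAs were called too, since RPM are relative, so medians scaled by size factors are given beside those of RPM.

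Sequences and positions are from RefSeq (GRCm38.p6), and hosts and exact matches from the GENCODE basic annotation and transcripts of GRCm38. Exact matches were sought in transcripts only, not in the whole genome. The members and lists were chosen with earlier results of these data known. The pairs for ratios and the class of hairpins at intron ends were chosen after the data were seen. Named are the 20 members with the highest mean, per comparison up to 3 called members with the largest rise and 3 with the largest fall among those of at least 3 RPM whose mice do not overlap, 3 on each side of the threshold, mirtrons and opposite-strand members of at least 3 RPM, and members of at least 10 RPM within another small RNA, besides those said to be chosen later. The mouse numbers are not stated to pair the libraries, and the model did not pair them. Same-numbered libraries from 2 stages had a mean correlation of deviations of -0.045 (33 pairs), against 0.004 for 183 other pairs. Nothing in the sources states that the mice share a litter or day. The remaining steps ran in python 3.11.15 (scipy 1.17.1, pandas 2.3.3, numpy 2.4.6, matplotlib 3.10.9).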

Additional observations from a re-analysis of the deposited data

Results flagged for a closer look

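Among the 16 members of at least 10 RPM, 64 groups of 6 mice were checked for a mouse whose gap to the nearest other exceeded Dixon's 95% critical value for the range of its group, which chance alone gives in about 1 in 20 groups. This marked 4 groups. miR-3105-5p was at 4.30 RPM in W10 mouse 4, with the other mice at 0 to 1.1 RPM, and at 36.78 RPM in P18 mouse 6, with the others at 9.59 to 18.64 RPM. miR-3473b was at 27.59 RPM in the same P18 mouse 6, with the others at 10.85 to 16.57 RPM. miR-5099 was at 52.63 RPM in Inv3 mouse 6, with the others at 10.48 to 25.69 RPM.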

How the results depend on the processing

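Of 116 named member values, 31 were called, and 16 of these kept the call in every alternative run, with 15 losing it in at least 1 setting. No named member value reversed, and 31 of the 3776 alternative values of named members were called where the reported value was not. For members of at least 10 RPM, size factors gave 5 calls from Lac7 to Inv3, and dropping the fold limit gave 9 calls each for W10 to P18, Lac7 to Inv3 and W10 to Inv3. Over all levels, a pseudocount of 10 left 3 calls (W10 to P18), 7 (P18 to Lac7), 3 (Lac7 to Inv3) and 4 (W10 to Inv3), DESeq2 gave 7 from W10 to P18, and without a fold limit there were 20, 19 and 21 calls from W10 to P18, Lac7 to Inv3 and W10 to Inv3. Leaving out 1 mouse gave 11 to 15, 13 to 17, 10 to 14 and 9 to 16 calls over all levels in the 4 comparisons in the order of the report, and 85 to 91 members. A threshold of 3 RPM gave 43 members and one of 10 RPM 23. Without miR-3074-5p the members' share of reads was 0.302%, 0.172%, 0.245% and 0.215% at W10, P18, Lac7 and Inv3, in place of 0.769%, 0.737%, 0.915% and 0.837%. The ratio of miR-3071-3p to miR-136-5p, not called from P18 to Lac7 (log2 difference 0.23), was -0.99 with a pseudocount of 10, which exceeds the level of miR-136-5p at Lac7. With the mouse number as a replicate block, 3, 7, 3 and 4 members of at least 10 RPM were called in the 4 comparisons (4, 7, 3 and 5 without it). The share called over all miRNAs was counted for the reported setting only. The counts under other settings thus cannot show whether the members moved apart from the other miRNAs. Members under 10 RPM rest on few reads, and a library with 0 reads still allows an expected count of up to about 3 reads.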
